A study of Lathyrus oleraceus with 4 samples.

Results

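The 100 most abundant unigenes of developing pea seeds were described across 4 RNA-Seq libraries. A unigene is a sequence assembled from the reads themselves, without a genome. For each unigene the counted reads were divided by the total of the library, the 4 shares were averaged, and the 100 unigenes with the highest mean share were taken, of 77269 in all. Because the members were selected on these reads, their shares, ranks and changes describe them and carry no test, and a mean can be carried by 1 library. The members' summed share averaged 50.06% of the reads of a library.

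The libraries came from whole seeds of the grain pea cultivar Zhongwan 6 at 25 and 10 days after pollination (DAP) and of the vegetable pea cultivar Zhewan 1 at 25 and 10 DAP. Both cultivars were field grown, seeds of many plants were pooled, and the labels name no treatment. Each combination of cultivar and stage had 1 library, so no difference had a replicate check, and how the collected biological replicates entered the 4 libraries is not given in the sources used here. The study set out to compare early and late seed development in a vegetable and a grain pea.

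The counted reads numbered 70912839 and 60861344 in Zhongwan 6 at 25 and 10 DAP, and 55819963 and 50086351 in Zhewan 1 at 25 and 10 DAP. They outnumbered the cleaned reads of every library, so reads were counted on more than 1 sequence, and members with near-identical stretches can share reads. Over all unigenes, 191 had at least 100 reads in both libraries of 25 DAP and at most 3 in each of the others, and 243 had this pattern for both libraries of 10 DAP. No unigene had it for both libraries of Zhongwan 6 or for both libraries of Zhewan 1. In whole seeds, fewer cells of a type and less RNA per cell cannot be told apart.

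A pea seed first builds the embryo and its coat by cell division, then fills the enlarged cotyledon cells with starch and with storage proteins of the legumin, vicilin and albumin families, which feed the seedling. During filling, a small number of gene families is known to supply a large part of the messenger RNA of a legume seed. None of the 100 members was paired with a gene name in the sources used here, so the members are given by their identifiers and no role is stated for them. In an identifier such as comp40911_c0_seq2, the part before seq names the component, a set of overlapping sequences that the Trinity assembler could not separate into unrelated ones, and seq numbers the sequences within it. Sequences of 1 component are often splice forms, alleles or close gene copies. In 2 components a further sequence, itself no member, had a name: granule-bound starch synthase 1, which makes amylose in the starch granule, and sucrose synthase, which cleaves the sucrose that reaches the seed.

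The members took 52.9% of the counted reads in Zhongwan 6 at 25 DAP and 49.998% at 10 DAP, and in Zhewan 1 they took 41.1% at 25 DAP and 56.2% at 10 DAP. The seeds of Zhewan 1 at 25 DAP thus stood lowest. The 95% binomial limits (Wilson) lay within 0.02 percentage points of each share, and here, as for every interval below, they cover counting error only. The summed share of the first 10 ranks differed less between libraries than that of the lower ranks, although single members among them moved widely. The 10 members with the highest mean share together took 22.4% and 25.0% in Zhongwan 6 at 25 and 10 DAP, and 24.0% and 23.6% in Zhewan 1 at 25 and 10 DAP. Ranks 51 to 100 took 6.56% and 4.90% in Zhongwan 6 at 25 and 10 DAP, against 4.55% and 7.70% in Zhewan 1 at 25 and 10 DAP. The next 100 unigenes after the members took between 4.03% and 5.08% of a library. This was less than the members of ranks 51 to 100 took in 3 libraries, and in Zhewan 1 at 25 DAP it was more, at 4.73%.

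**Figure D1:**
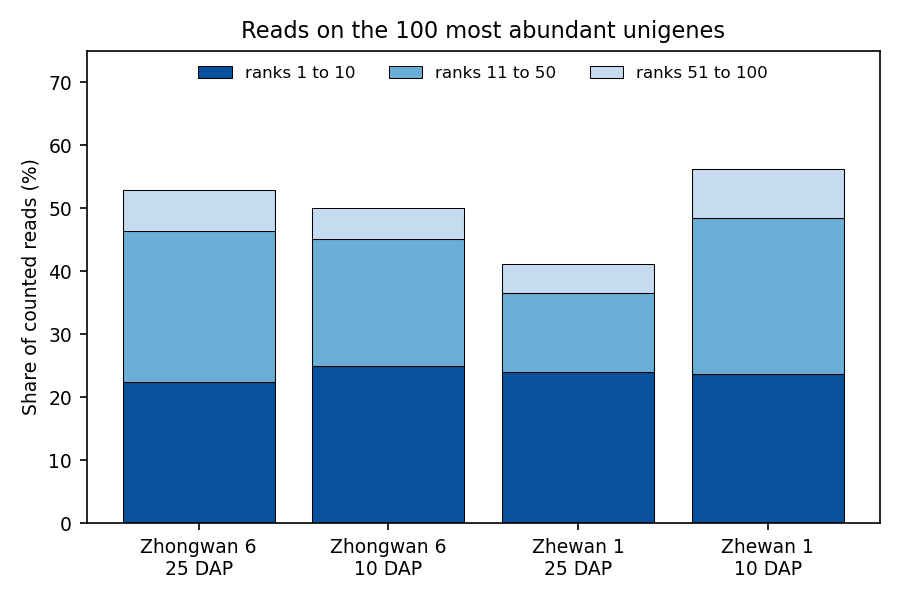
Share of counted reads (%) on the 100 members in each library, stacked by rank of mean share (ranks 1 to 10 at the bottom, then 11 to 50, then 51 to 100), 1 library per bar. The bars reach 52.9%, 49.998%, 41.1% and 56.2% from left to right, while the lowest segments lie between 22.4% and 25.0%.

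The reads were concentrated on few members. In Zhongwan 6, 10 members held 50% of the members' reads at 25 DAP and 9 did at 10 DAP, against 6 in Zhewan 1 at 25 DAP and 12 at 10 DAP. The median member took 0.207% of the reads of Zhongwan 6 at 25 DAP and 0.149% at 10 DAP, against 0.11999% in Zhewan 1 at 25 DAP and 0.232% at 10 DAP. In Zhewan 1 at 25 DAP the members' reads therefore lay on the fewest members. Of the 100 members, 41 had their highest share in Zhewan 1 at 10 DAP and 55 had their lowest in Zhewan 1 at 25 DAP. The highest share lay in Zhongwan 6 for 24 members at 25 DAP and 13 at 10 DAP, and in Zhewan 1 at 25 DAP for the other 22. These counts rest on the shares that chose the members. They were not made over all unigenes, so they cannot be set against a background.

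The choice by mean share also kept unigenes that were abundant in some libraries only. Of the library's own 100 most abundant unigenes, 82 and 79 were members in Zhongwan 6 at 25 and 10 DAP, against 62 and 86 in Zhewan 1 at 25 and 10 DAP. The 4 lists together held 177 unigenes, and the 43 that stood on all 4 were members. In 33 members, at least 50% of the summed share came from 1 library, a count that was not made over all unigenes. At the edge of the choice, comp27705_c0_seq3 and comp39109_c0_seq7 (ranks 99 and 100) had mean shares of 0.0754% and 0.0749%, against 0.0736% and 0.0727% for comp40466_c1_seq10 and comp39716_c0_seq10 just outside (ranks 101 and 102). The edge therefore falls in a continuous run of values.

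The largest member differed between the 4 libraries. In Zhongwan 6 it was comp40218_c0_seq4 (839 bp) at 25 DAP, with 3.59% of the reads, and comp40800_c2_seq2 (1898 bp) at 10 DAP, with 5.71%. In Zhewan 1 it was comp39373_c0_seq5 (1585 bp) at 25 DAP, with 7.26%, and comp38444_c3_seq4 (1987 bp) at 10 DAP, with 5.65%. RPKM is the count scaled to the unigene's length and the library's counted reads. By RPKM, the leading unigene of a library was the same as by share in 3 libraries. In Zhewan 1 at 10 DAP comp40218_c0_seq4 led instead, with 28579 RPKM.

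Of the 10 members with the highest mean share, the first was comp40800_c2_seq2, with 2.40% of the reads of Zhongwan 6 at 25 DAP against 5.71% at 10 DAP, and 1.96% of those of Zhewan 1 at 25 DAP against 4.42% at 10 DAP. Its log2 ratio of 25 to 10 DAP was -1.25 in Zhongwan 6 and -1.17 in Zhewan 1, so that the younger seeds were the higher ones in both cultivars. The second, comp38444_c3_seq4, took 2.33% against 4.27% in Zhongwan 6 (25 against 10 DAP) and 1.69% against 5.65% in Zhewan 1. Ranks 3 and 4, comp39373_c0_seq5 and comp39373_c0_seq3, are sequences of 1 component and went the other way. For comp39373_c0_seq5 the shares were 3.49% against 1.33% in Zhongwan 6 and 7.26% against 0.807% in Zhewan 1, and for comp39373_c0_seq3 they were 3.27% against 1.25% and 6.81% against 0.760%.

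In ranks 5 to 8 the direction of the stage difference was not the same in both cultivars. The member comp40218_c0_seq4 took 3.59% against 2.17% in Zhongwan 6 and 0.859% against 2.40% in Zhewan 1, again for 25 against 10 DAP. The long comp41085_c1_seq1 (4593 bp) took 3.53% against 1.97% and 1.01% against 2.08%. Both were thus higher at 25 DAP in Zhongwan 6 and lower at 25 DAP in Zhewan 1, with the difference past 2-fold in Zhewan 1 only. A larger opposition was seen in comp37913_c0_seq10 (2749 bp), with 2.17% against 1.05% in Zhongwan 6 and 0.331% against 2.75% in Zhewan 1. For comp39373_c1_seq3 (1052 bp) the shares were 1.01% against 1.99% and 2.10% against 1.18%, within 2-fold in both cultivars. The last of the 10, comp40051_c0_seq4 and comp40051_c0_seq3, belong to 1 component and took 0.325% and 0.331% of the reads of Zhongwan 6 at 25 DAP, against 2.63% and 2.57% at 10 DAP. In Zhewan 1 both took 1.00% at 25 DAP, against 1.77% and 1.80% at 10 DAP.

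**Figure D2:**
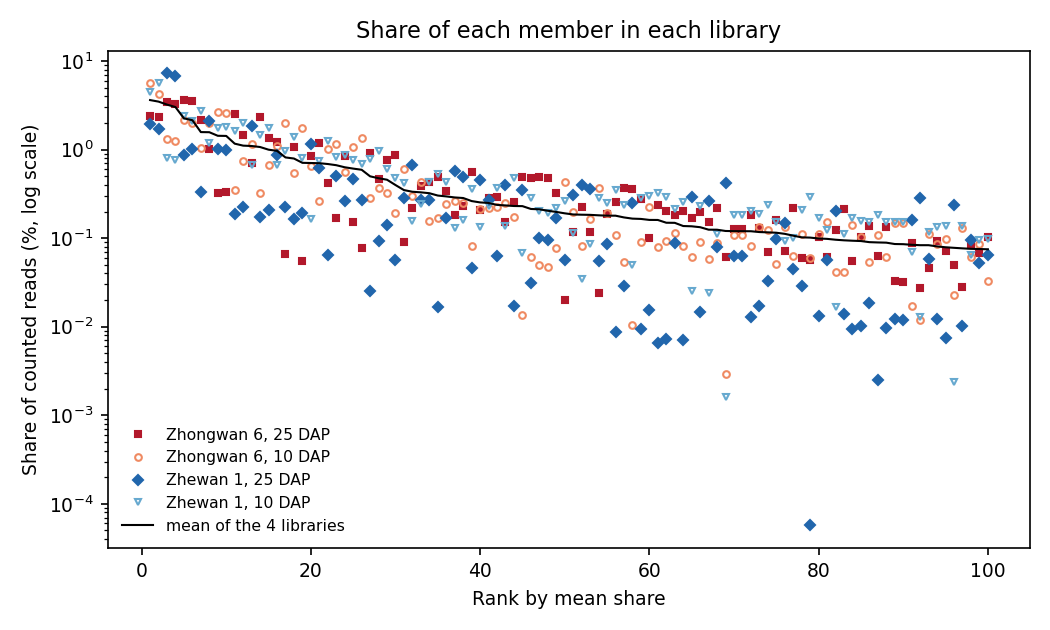
Share of counted reads (%, log scale) of each of the 100 members in each of the 4 libraries, by rank of mean share, with the mean as a line. Mean shares run between 3.62% at rank 1 and 0.0749% at rank 100, and the lowest point is comp36631_c1_seq6 (rank 79) with 5.73e-05% of the reads of Zhewan 1 at 25 DAP.

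Single members varied widely over the 4 libraries. The ratio of the highest to the lowest share had a median of 8.99 over the members, it was at least 10 in 48 of them, and it stayed below 2 in 5. The choice by mean share admits unigenes that are high in 1 library, and these ratios were not computed over all unigenes. The steadiest were comp35525_c0_seq2, with a ratio of 1.30, comp38763_c0_seq2, with 1.53, and comp41126_c1_seq3, with 1.77. For comp35525_c0_seq2 the shares were 0.285% and 0.218% in Zhongwan 6 at 25 and 10 DAP and 0.267% and 0.229% in Zhewan 1 at 25 and 10 DAP. At the other end stood comp36631_c1_seq6, which had 40051 and 36463 reads in Zhongwan 6 at 25 and 10 DAP, and 32 reads in Zhewan 1 at 25 DAP against 144944 at 10 DAP. Its 32 reads were the fewest of any member in any library, and its share in that library had 95% limits of 4.1e-05% and 8.1e-05%.

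Members were then compared between pairs of libraries. A unigene was called when its false discovery rate (FDR) in Fisher's exact test was at most 0.001 and its RPKM differed at least 2-fold. At large counts, those of all members included, a normal approximation replaced the exact test. The study used the same thresholds with a formula cited from other work. It reported far fewer unigenes in each comparison than were called here, so the calls are not those of the study. The test used here compares 2 libraries and not 2 conditions. At the members' depth nearly all differences passed the FDR (99 of 100 members in the stage comparison of Zhongwan 6 and 100 in each of the others), so the fold decided the call. Most other unigenes had far fewer reads, so the shares called over all unigenes, given beside each count, are not matched for depth.

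In Zhongwan 6, 42 members were higher at 25 DAP than at 10 DAP, 19 were lower and 39 were not called, against 9.08% higher and 16.0% lower of all 74915 unigenes tested. The median log2 ratio was 0.47 over the members and -0.22 over all unigenes with reads in both libraries. In points of the library, 60 members gained 24.2 percentage points and 40 lost 21.3, a net of 2.89. Of the gain, at least 50% came from 7 members, and the first, comp40974_c0_seq9, added 2.17 points. Among the losses, comp40800_c2_seq2 (-3.31 points) and comp40051_c0_seq4 (-2.31 points) came first.

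The largest ratios of Zhongwan 6 belonged to comp40911_c0_seq2 and comp40911_c0_seq5, from the component that also holds a sequence named granule-bound starch synthase 1. The member comp40911_c0_seq2 had 2152 RPKM at 25 DAP against 58.6 RPKM at 10 DAP, a log2 ratio of 5.20 (95% limits 5.17 and 5.23). The member comp40911_c0_seq5 had 1273 RPKM at 25 DAP against 37.3 RPKM at 10 DAP, a log2 ratio of 5.09. The named sequence, comp40911_c0_seq4 (699 bp, rank 107), had 2165 RPKM at 25 DAP against 52.0 RPKM at 10 DAP, close to its longer neighbours. Next came comp34939_c0_seq1, with 401 RPKM at 25 DAP against 19.2 RPKM at 10 DAP (log2 ratio 4.39). The lowest ratios were those of comp39594_c2_seq12 (-5.02), comp39594_c2_seq4 (-4.91) and comp38491_c2_seq7 (-4.41). For comp39594_c2_seq12 this was 287 RPKM at 25 DAP against 9292 RPKM at 10 DAP.

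In Zhewan 1 the split was turned round. There 21 members were higher at 25 DAP than at 10 DAP, 60 were lower and 19 were not called, against 20.7% higher and 9.42% lower of all 74253 unigenes tested. The median log2 ratio was -1.503 over the members and 0.53 over all unigenes with reads in both libraries. Losses in 73 members summed to 36.0 percentage points and gains in 27 to 20.9, a net change of -15.1 points. The gain lay on few members, since comp39373_c0_seq5 (6.46 points) and comp39373_c0_seq3 (6.05 points) made up over 50% of it. Of the losses, comp38444_c3_seq4 (-3.95 points) and comp40800_c2_seq2 (-2.46 points) were the first.

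The highest ratio of Zhewan 1 was that of comp34939_c0_seq1 (1520 bp), with 2741 RPKM at 25 DAP against 10.7 RPKM at 10 DAP (log2 ratio 7.999, limits 7.90 and 8.10). After it came comp32910_c0_seq1, with 5177 RPKM against 52.8 RPKM (6.62), and comp38328_c0_seq4, with 652 RPKM against 30.0 RPKM (4.44). The component of comp38328_c0_seq4 also holds comp38328_c0_seq2 (rank 122), named sucrose synthase, which had 654 RPKM at 25 DAP against 28.3 RPKM at 10 DAP. The lowest ratio was that of comp36631_c1_seq6, with 0.651 RPKM at 25 DAP against 3285 RPKM at 10 DAP (log2 ratio -12.30, limits -12.85 and -11.80). In Zhongwan 6 the same unigene had 641 RPKM at 25 DAP against 680 RPKM at 10 DAP, so its near absence was seen in 1 library of 4. It is 1 of 6 sequences of its component and held 24.0% of the component's reads in Zhongwan 6 at 25 DAP, against 91.6% at 10 DAP. The whole component took 0.235% against 0.0654% of the reads in Zhongwan 6, and 0.000545% against 0.336% in Zhewan 1, for 25 against 10 DAP. The next lowest were comp39889_c1_seq18 (-6.21) and comp37712_c0_seq1 (-5.61).

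Set side by side, the stage differences of both cultivars placed 12 members higher at 25 DAP in both, 13 lower in both and 24 in opposite directions. Over the 71899 unigenes tested in both, 5.88% were higher in both, 5.86% lower in both and 1.85% opposite. A further 23 members were lower at 25 DAP in Zhewan 1 only, 9 were higher in Zhewan 1 only, 6 were lower and 6 higher in Zhongwan 6 only, and 7 were called in neither. Over the same unigenes, 3.13% were lower and 13.4% higher at 25 DAP in Zhewan 1 only, and 9.17% were lower and 2.38% higher in Zhongwan 6 only. Whether the stage difference itself differed between the cultivars could not be tested with 1 library each.

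**Figure D3:**
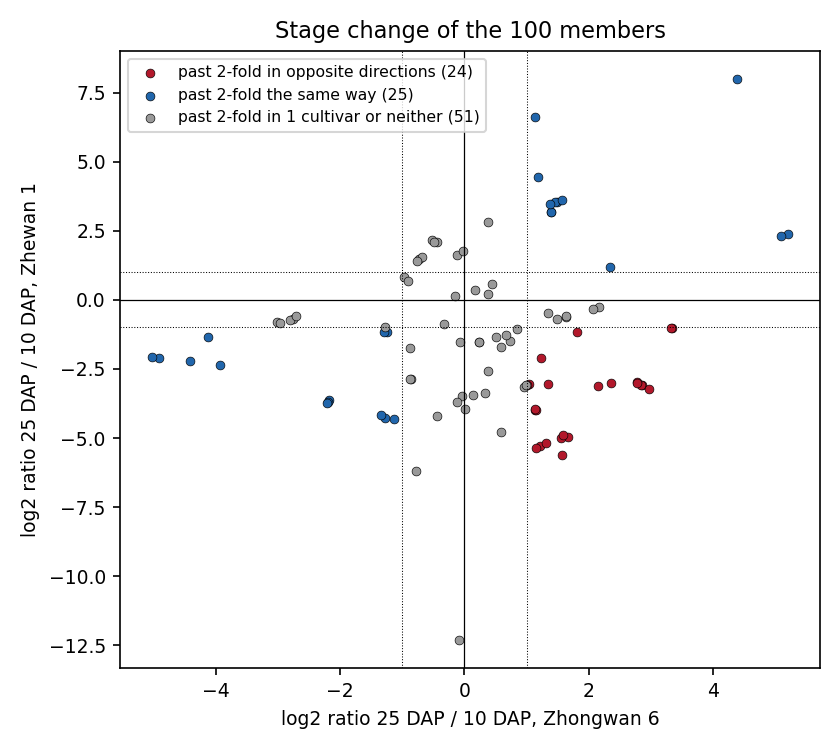
Log2 ratio of RPKM at 25 DAP over 10 DAP for each of the 100 members, in Zhongwan 6 (horizontal) and in Zhewan 1 (vertical), with dotted lines at 2-fold. The 24 members called in opposite directions fall in the lower right quadrant only, and the point at the bottom is comp36631_c1_seq6, at -0.09 and -12.30.

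The 12 members higher at 25 DAP in both cultivars came from 8 components. Together they took 8.49% of the reads of Zhongwan 6 at 25 DAP against 2.90% at 10 DAP, and 16.9% of those of Zhewan 1 at 25 DAP against 1.87% at 10 DAP. They include comp39373_c0_seq5, comp39373_c0_seq3, comp40911_c0_seq2, comp40911_c0_seq5, comp34939_c0_seq1 and comp38328_c0_seq4. The 13 members lower at 25 DAP in both came from 9 components and took 3.37% against 13.6% in Zhongwan 6 and 2.94% against 9.72% in Zhewan 1. Among them were comp40800_c2_seq2, comp39594_c2_seq4, comp39594_c2_seq12 and the shortest member, comp35373_c0_seq3.

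The 1.85% of all unigenes with opposite calls pools both directions, and its split by direction was not computed. All 24 members with opposite calls were higher at 25 DAP in Zhongwan 6 and lower at 25 DAP in Zhewan 1, and they came from 11 components. They took 16.0% of the reads of Zhongwan 6 at 25 DAP against 4.52% at 10 DAP, and 1.59% of those of Zhewan 1 at 25 DAP against 13.7% at 10 DAP. The component comp40974_c0, whose 5 sequences are all among them, took 6.23% against 0.870% in Zhongwan 6 and 0.466% against 3.97% in Zhewan 1. The 23 members lower in Zhewan 1 only took 15.6% against 12.7% in Zhongwan 6 and 4.97% against 19.1% in Zhewan 1. In all, 39 members were at least 2-fold lower in Zhewan 1 at 25 DAP than in every other library, and 9 were at least 2-fold higher there. The same counts were not made over all unigenes, so they cannot be set against a background. Of the 24 opposite members, comp36604_c0_seq1 had 8784 RPKM at 25 DAP against 2786 RPKM at 10 DAP in Zhongwan 6, and 243 RPKM against 7570 RPKM in Zhewan 1. Some opposite calls lay at the 2-fold cut, such as that of comp37913_c0_seq9, with a ratio of 2.0002 (limits 1.99 and 2.01) in Zhongwan 6.

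The same 4 libraries also give the difference between the cultivars at each stage. At 25 DAP, 51 members were higher in Zhongwan 6 than in Zhewan 1, 25 were lower and 24 were not called, against 4.93% higher and 12.3% lower of all 72654 unigenes tested. The median log2 ratio was 1.04 over the members and -0.39 over all unigenes with reads in both libraries. The difference was past 4-fold in 40 of the higher members and in 3 of the lower ones, against 3.03% and 5.58% of all unigenes tested. The highest ratios were those of comp36631_c1_seq6 (9.94, limits 9.45 and 10.49), comp36604_c0_seq1 (5.18) and comp37712_c0_seq1 (5.17). The lowest were those of comp38328_c0_seq4 (-3.37, 63.1 RPKM in Zhongwan 6 against 652 RPKM in Zhewan 1), comp34939_c0_seq1 (-2.77) and comp32910_c0_seq1 (-2.23).

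At 10 DAP, 9 members were higher in Zhongwan 6 than in Zhewan 1, 35 were lower and 56 were not called, against 10.4% higher and 3.07% lower of all 71326 unigenes tested. The median log2 ratio was -0.49 over the members and 0.43 over all unigenes with reads in both libraries. The difference was past 4-fold in 12 of the lower members, against 1.39% of all unigenes tested. At 4-fold, 3.67% of all unigenes tested were higher, and of the members only comp32910_c0_seq1, with 503 RPKM in Zhongwan 6 against 52.8 RPKM in Zhewan 1 (log2 ratio 3.25). After it came comp41077_c0_seq2 (1.96) and comp40920_c0_seq10 (1.30). The lowest ratios were those of comp40911_c0_seq2 (-2.33), comp36631_c1_seq6 (-2.27) and comp40911_c0_seq5 (-2.26). The granule-bound starch synthase component was thus lower in Zhongwan 6 at 10 DAP, with 58.6 RPKM against 294 RPKM in Zhewan 1 for comp40911_c0_seq2, while at 25 DAP that member had 2152 RPKM in Zhongwan 6 against 1517 RPKM in Zhewan 1, within 2-fold.

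No member was called in the same direction between the cultivars at both stages, either higher or lower in Zhongwan 6. This holds for differences of at least 2-fold only, since smaller ones shared a direction in some members. For comp40800_c2_seq2 the log2 ratios were 0.29 and 0.37 at 25 and 10 DAP, and for comp38763_c0_seq2 they were -0.18 and -0.06. Over the 66711 unigenes tested at both stages, 0.447% were called higher in Zhongwan 6 at both and 0.511% lower at both. With shares this low, the absence of such calls does not set the members apart. Opposite calls at the 2 stages were made in 31 members, against 3.51% of those unigenes. In 27 of the 31, Zhongwan 6 was higher at 25 DAP and lower at 10 DAP, and in 4 the order was reversed. The 3.51% pools both orders, and its split was not computed. The stage and cultivar comparisons share their 4 libraries, so they are not separate evidence of these directions. A call was made in all 4 comparisons for 25 members and in none for 5, and the shares of all unigenes with these patterns were not computed.

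A share of reads depends on all other reads of the library. When libraries were scaled by the median ratio of unigenes with at least 1 RPKM in all 4, log2 ratios moved by 0.14 for the stage in Zhongwan 6, by -0.56 for the stage in Zhewan 1, by 0.32 for the cultivars at 25 DAP and by -0.39 for the cultivars at 10 DAP. The members higher and lower were then 44 and 18, 17 and 71, 56 and 18, and 2 and 46 in these 4 comparisons. The unigenes tested moved too, with 10.3% higher and 14.4% lower, 12.5% and 13.8%, 6.81% and 7.73%, and 5.17% and 5.22%. Under this scaling the members' uneven split thus stood beside a nearly even one over all unigenes in 3 comparisons, while the opposite skew without this scaling was larger in each of them. Scaled by the reads outside the members they were 44 and 19, 19 and 70, 56 and 18, and 6 and 40, against 9.79% and 15% of all unigenes tested, 14.2% and 12.7%, 6.82% and 7.69%, and 7.34% and 3.94%. The side with more members remained the same in each comparison. Of unigenes with at least 1 RPKM in either library, without rescaling, 15.8% were higher and 27.3% lower, 38.3% and 16.5%, 8.67% and 21.7%, and 19.9% and 5.88% in the same comparisons.

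The 100 members came from 60 Trinity components. In 36 components 1 sequence was a member, and the other 64 members lay in 24 components with 2 or more. Only 25 members were the sole sequence of their component, whereas 68.9% of all 77269 unigenes were. The 60 components held 142 sequences in all and at most 8 each. In 9 components 3 or more sequences were members, 34 members in all. The largest of these by mean share were comp39373_c0 (6.53%), comp37913_c0 (4.48%), comp40051_c0 (3.47%) and comp40974_c0 (2.88%).

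**Figure D4:**
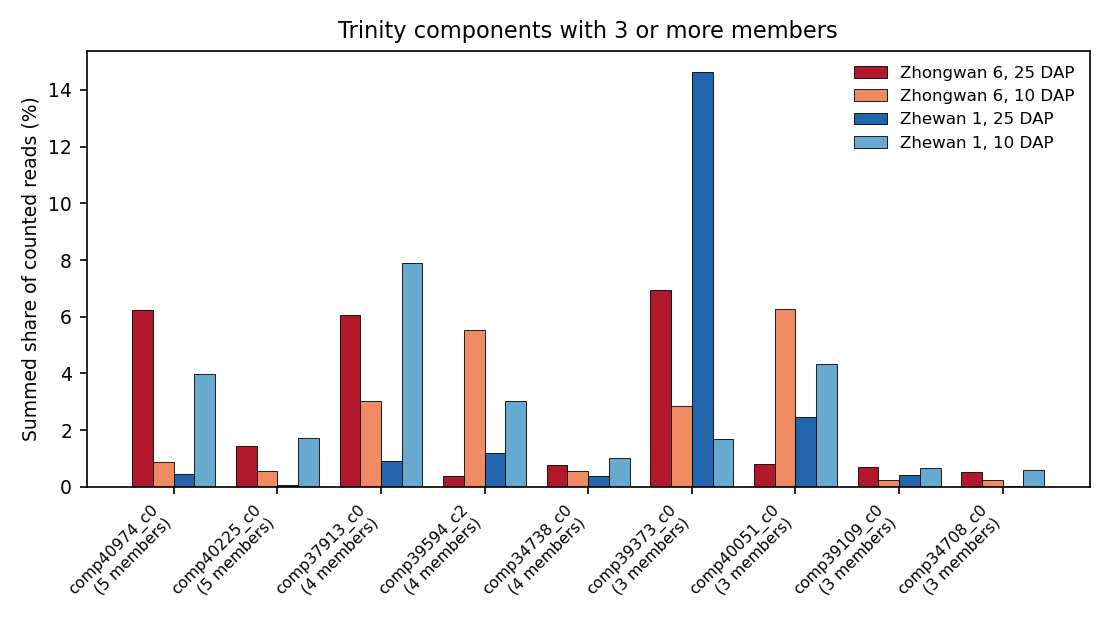
Summed share of counted reads (%) of the members of each Trinity component with 3 or more members, 1 bar per library. The component comp39373_c0 reaches 14.7% in Zhewan 1 at 25 DAP, and comp40974_c0 stands at 6.23% and 3.97% in Zhongwan 6 at 25 DAP and Zhewan 1 at 10 DAP, against 0.870% and 0.466% in the remaining libraries.

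These components had different courses. Members of comp39373_c0 took 6.94% against 2.84% in Zhongwan 6 and 14.7% against 1.70% in Zhewan 1, for 25 against 10 DAP. Members of comp40051_c0 took 0.808% against 6.27% in Zhongwan 6 and 2.47% against 4.34% in Zhewan 1. Those of comp39594_c2 took 0.383% against 5.54% and 1.21% against 3.03%. The first was thus the higher at 25 DAP, and the others at 10 DAP, in both cultivars. In comp37913_c0 the 4 sequences, 2 of them with opposite calls, took 6.06% against 3.03% in Zhongwan 6 and 0.924% against 7.89% in Zhewan 1. Their ratios of 25 to 10 DAP in Zhongwan 6 lay between 1.94 and 2.06, so only the 2-fold cut divided them. In comp40225_c0 the 5 sequences took 1.43% against 0.543% in Zhongwan 6 and 0.0493% against 1.71% in Zhewan 1, and in comp34708_c0 the 3 took 0.512% against 0.232% and 0.0373% against 0.586%. In these last components, as in comp40974_c0, 25 DAP was the higher stage in Zhongwan 6 and the lower one in Zhewan 1. The remaining ones were comp34738_c0, with 0.778% against 0.572% and 0.383% against 1.01%, and comp39109_c0, with 0.697% against 0.240% and 0.431% against 0.680%.

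Members of 1 component mostly varied together. In 20 of the 24 components all members had the same direction in all 4 comparisons, in 19 they had the same calls, and the largest gap between their log2 ratios had a median of 0.18. In comp40974_c0, for example, comp40974_c0_seq9 held 40.4% and 40.3% of the members' reads in Zhongwan 6 at 25 and 10 DAP, and 40.3% and 40.6% in Zhewan 1 at 25 and 10 DAP. A gap of 1 or more was found in 2 components. In comp39594_c2, comp39594_c2_seq4 held 17.4% of the members' reads of Zhongwan 6 at 25 DAP against 36.3% at 10 DAP, and comp39594_c2_seq6 held 44.5% against 20.9%. In comp39373_c0, the short comp39373_c0_seq4 (303 bp) held 2.63% of the members' reads of Zhongwan 6 at 25 DAP against 9.16% at 10 DAP, and 3.96% against 7.65% in Zhewan 1. Reads could be counted on several sequences, and how many of them the members of a component share was not tested.

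The members were longer than the unigenes as a whole, and this bears on their selection, since a longer transcript gives more reads at the same number of molecules. Their lengths ran between 209 and 8348 bp with a median of 1350.5 bp, against a median of 529 bp over all unigenes. Of the members, 67 were at least 1000 bp long, against 31.7% of all unigenes, and 11 were shorter than 500 bp, against 48.3% of all. The longest were comp41126_c1_seq1 (8348 bp), with 1475 and 1317 RPKM in Zhongwan 6 at 25 and 10 DAP and 1040 and 806 RPKM in Zhewan 1 at 25 and 10 DAP, and comp41085_c1_seq1 (4593 bp). The shortest were comp35373_c0_seq3 (209 bp) and comp40218_c0_seq1 (228 bp), which shares its component with the leading comp40218_c0_seq4.

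**Figure D5:**
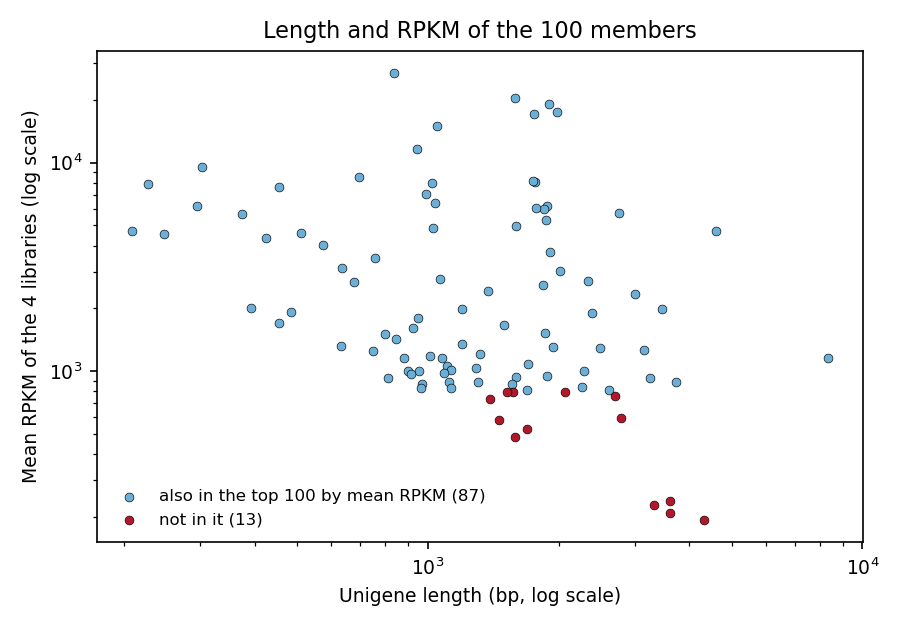
Mean RPKM of the 4 libraries against unigene length in bp (both log scales) for the 100 members. The 87 members that are also among the 100 highest by mean RPKM lie above the other 13, the lowest of which is comp38328_c0_seq4 (4312 bp) with 193 RPKM.

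Per length, most members stayed among the most abundant unigenes, but their order changed. By mean RPKM, comp41126_c1_seq1 moved from rank 16 to rank 69, and comp40218_c0_seq1 from rank 55 to rank 13. Of the 100 members, 87 were also among the 100 unigenes with the highest mean RPKM. The members' mean RPKM had a median of 1566 and ran between 193 and 26851 RPKM, with comp40218_c0_seq4 at the top and comp38328_c0_seq4, ranked 319 by mean RPKM, at the bottom. Of all RPKM, the members held 50.995% and 51.1% in Zhongwan 6 at 25 and 10 DAP, against 42.0% and 54.8% in Zhewan 1 at 25 and 10 DAP. The order of the libraries by this measure differed from that by reads only in Zhongwan 6, where both stages lay within 0.1 percentage points.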

How the data were processed

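Total RNA of whole pea seeds was sequenced as 4 poly(A) libraries, 1 for each cultivar and stage. The authors assembled the pooled reads with Trinity, mapped the reads back with Bowtie 0.12.8, and deposited read counts per unigene. The authors also deposited RPKM, which is that count scaled to the unigene's length and to all reads counted in the library. All but 2 RPKM values could be recomputed from the counts within a relative tolerance of 0.0001, and those 2 are single reads listed at 0. A reference build does not apply. All per-sample columns were used.

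Libraries were compared in pairs with Fisher's exact test (two-sided) on the counts, with Benjamini-Hochberg adjustment over all unigenes with at least 1 read. Calls needed an FDR of 0.001 or less and a 2-fold ratio of RPKM. Large counts, which included those of all members, were tested by a normal approximation in place of the exact test. No p-value is printed, since each group has 1 library. Limits for shares are Wilson's, and limits for ratios are exact Clopper-Pearson ones. The test was checked on simulated counts with counting error only. That check does not cover spread between plants or library preparations, or reads counted on more than 1 sequence. Alternatives used edgeR 4.0.16 in R 4.3.3, and Python 3.11.15 with SciPy 1.17.1 did the rest.

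The members and lists were chosen with earlier results of these data known. Named members were the 10 first by mean share, the first of each library, the 3 highest and 3 lowest ratios of each comparison, the edge of the choice, the 2 longest and 2 shortest, components with 3 or more members, opposite stage calls and the 3 steadiest. Members named for their points gained or lost, for a share within a component, and comp40911_c0_seq4 and comp38328_c0_seq2 were added after their values were seen. No cell type markers could be checked, since no member carries a gene name here.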

Additional observations from a re-analysis of the deposited data

Results flagged for a closer look

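In 11 components, members were called higher at 25 DAP in Zhongwan 6 and lower at 25 DAP in Zhewan 1, so that the only library pair of each cultivar moved in opposite directions. The difference was not tested, since each cultivar has 1 library per stage. On the log2 scale, the stage ratio of Zhongwan 6 minus that of Zhewan 1, from reads summed over the opposite members, was 7.18 in comp37712_c0, 6.62 in comp36604_c0, 6.52 in comp40225_c0, 5.93 in comp40974_c0 and 5.28 in comp40958_c0. It was 5.11 in comp34708_c0, 4.37 in comp35404_c0, 4.35 in comp34244_c0, 4.09 in comp37913_c0, 3.32 in comp40492_c2 and 2.98 in comp27103_c0.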

How the results depend on the processing

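Replicate numbers pair no samples here, since each group holds 1 library. The percentage of members called, 61 for the stage in Zhongwan 6, 81 for the stage in Zhewan 1, 76 for the cultivars at 25 DAP and 44 for the cultivars at 10 DAP, stayed within 1.5 times under both scalings, component sums, a pseudocount of 1 RPKM, a minimum of 1 RPKM, and members chosen by mean RPKM, by median share, or numbering 200 or 50. A 4-fold threshold left 28, 60, 43 and 13 members, against 15.4%, 17.8%, 8.61% and 5.06% of all unigenes tested. With edgeR's likelihood ratio test and an assumed coefficient of variation of 0.4 the counts were 8, 24, 13 and 0, against 5.55%, 5.93%, 2.33% and 0.31%. An edgeR quasi-likelihood test of stage over both cultivars (additive model with cultivar as the block, 4 libraries) called 1 member, comp34939_c0_seq1, at an adjusted p below 0.05, and 10 members at an unadjusted one, against 4958 and 10758 of all 77269 unigenes; it replaces both stage comparisons, where its value is 1. The members' mean share of 50.06% became 49.4% by mean RPKM, 49.96% by median share, 54.7% with 200 members, 44.1% with 50, and 54.97% for the 100 most abundant components. Their median length of 1350.5 bp became 1045.5, 1313, 1199.5 and 1806.5 bp under the first 4 of these. Of 780 values for 65 named members under the scalings and the pseudocount, 728 kept their call or lack of one, 14 lost a call and 38 gained one. A change of direction was looked for in called values only. The scalings moved log2 ratios by less than the 2-fold of a call, and a pseudocount cannot turn a ratio round, so none could be found. Uncalled values were not checked for it. All values rest on 1 library per group, so counting limits say nothing of the spread between plants or library preparations.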

Other observations

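Some members of different Trinity components had read counts in an almost fixed ratio over the 4 libraries. This was looked for after the values had been seen, as a spread of the log2 read ratio below 0.1. It held for 21 of 65 pairs within a component and for 9 of 4885 pairs between components. The closest between components was comp40868_c0_seq8 over comp40920_c0_seq2, with read ratios of 1.36 and 1.33 in Zhongwan 6 at 25 and 10 DAP and 1.35 and 1.35 in Zhewan 1 at 25 and 10 DAP. The reads of comp39156_c0_seq2 (3607 bp) over those of comp36757_c0_seq2 (1459 bp) gave ratios of 1.01, 1.00, 1.04 and 1.00 in the same order, near equal counts on sequences of unequal length. The remaining pairs joined comp40920_c0 again with comp40868_c0, comp39594_c2 with comp40051_c0, and sequences of comp38817, comp39373, comp40969 and comp30456 with each other. The sequences of these unigenes were not analysed here.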
